A study of Caenorhabditis elegans with 24 samples.

Results

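The genes elo-5, elo-6 and acs-1 act in the synthesis and use of monomethyl branched-chain fatty acids, and they are described here across 4 genotypes of Caenorhabditis elegans. They were taken as 3 listed genes by name out of 46778 genes in the count and FPKM tables, and all 3 passed the filter on low counts that left 14865 genes for testing. The listing does not state which values it used. The genes are taken here as chosen by their lower counts and FPKM in unc-1(vlt10) against 40Q, which were already known, so that difference is described and not tested. RNA was sequenced from pooled young adults grown at 20 °C, with 6 libraries for each genotype and 24 in all. Every genotype carried the 40Q::YFP transgene, in which a repeat of 40 glutamines is fused to a yellow fluorescent protein and expressed in body wall muscle from the unc-54 promoter. The genotypes were 40Q; unc-1(vlt10), with a premature stop in the stomatin homologue UNC-1, 40Q; nhr-1(vlt16), with a mutation made by CRISPR in a nuclear hormone receptor, 40Q; unc-1(vlt10); nhr-1(vlt16), called double mutants, and 40Q alone. Each genotype was 1 strain, so the allele and the rest of that strain's background cannot be told apart. The deposited names give all 40Q libraries the letter A and all mutant libraries the letter R, without saying what these mean. If the 40Q libraries were handled apart, that cannot be told apart from genotype in comparisons with 40Q. The question put to these libraries was which transcripts changed with loss of unc-1 and whether they changed where nhr-1 was mutated as well.

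Branched-chain fatty acids of C. elegans carry a single methyl branch near the end of the chain. Their synthesis starts from a primer made by breaking down leucine, which fatty acid synthase and then elongases extend by adding carbons from malonyl-CoA. ELO-5 and ELO-6 are the elongases known for the long branched chains, and ACS-1 is an acyl-CoA synthetase that joins such fatty acids to coenzyme A so that lipids can be built from them. Animals without these fatty acids arrest as larvae, and the sphingolipids of C. elegans are built on a branched sphingoid base.

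In the WBcel235 annotation of Ensembl release 115, elo-5 (WBGene00001243) lies on chromosome IV from 5374616 to 5377117 on the minus strand, with 4 exons. The gene elo-6 (WBGene00001244) lies on the same strand from 5386629 to 5388559, with 3 exons. A gap of 9511 bases separates this pair, and it holds 3 protein-coding genes on the opposite strand. The gene acs-1 (WBGene00018488) lies on chromosome V from 6524989 to 6532089 on the plus strand, with 3 transcripts of 7 to 9 exons. The exon at the 3′ end of elo-5 shares 162 bases with exons of F41H10.3 on the opposite strand, and that of acs-1 shares 19 bases with hpo-26, also on the opposite strand. Whether the counting used strand is not stated, so reads from these shared bases cannot be assigned to either gene. F41H10.3 averaged between 132.0 and 137.0 CPM (counts scaled to the size of each library) in the 4 genotypes.

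The library totals were 26646628 to 30467364 counts on genes in double mutants and 19098458 to 26338834 in the other genotypes. The mutated genes followed the labels: unc-1 had 0.569 to 1.257 FPKM (fragments scaled to transcript length and library size) in unc-1(vlt10) and 0.682 to 0.882 in double mutants, against 5.507 to 7.925 in 40Q. The gene nhr-1 had 5.885 to 8.713 FPKM in nhr-1(vlt16) and 6.691 to 9.094 in double mutants, against 13.17 to 15.4 in 40Q. The labels and the study call the 6 libraries of a genotype biological replicates of pooled animals, without saying whether they came from separate cultures, so p-values measure the spread between these libraries.

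All 3 genes were low in unc-1(vlt10), both elongases by a larger factor than acs-1. In the genotypes with mutated nhr-1 both elongases were near their 40Q level, while the means of acs-1 stayed somewhat below it. In FPKM the order elo-6, elo-5, acs-1 held for the means of all 4 genotypes. For elo-5, the lowest, median and highest library had 30.1, 36.95 and 42.7 FPKM in unc-1(vlt10) libraries, 110.0, 125.5 and 128.3 in those of nhr-1(vlt16), 128.2, 139.6 and 148.3 in those of double mutants, and 115.8, 129.5 and 141.0 in 40Q. The unc-1(vlt10) libraries lay below every other library, and this held for elo-6 and acs-1 too. In CPM, 13.3% of all genes tested had unc-1(vlt10) entirely below 40Q, and 11.6% had it below nhr-1(vlt16). For elo-5 the ranges of nhr-1(vlt16) and double mutants each overlapped that of 40Q.

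For elo-6, the lowest, median and highest library had 40.7, 49.99 and 54.03 FPKM in unc-1(vlt10) libraries, 198.6, 219.9 and 249.6 in nhr-1(vlt16), 230.0, 247.7 and 270.4 in double mutants, and 184.8, 217.1 and 230.7 in 40Q. Here too only the unc-1(vlt10) libraries stood apart, and the lowest double mutant library was within 1 FPKM of the highest 40Q library. For acs-1, they had 25.4, 27.75 and 30.4 FPKM in unc-1(vlt10) libraries, 53.3, 56.7 and 60.9 in nhr-1(vlt16), 50.1, 52.9 and 56.5 in double mutants, and 60.4, 66.35 and 69.7 in 40Q. The double mutants therefore lay below every 40Q library for acs-1, which they did for neither elongase, and the nhr-1(vlt16) range touched that of 40Q.

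**Figure D1:**
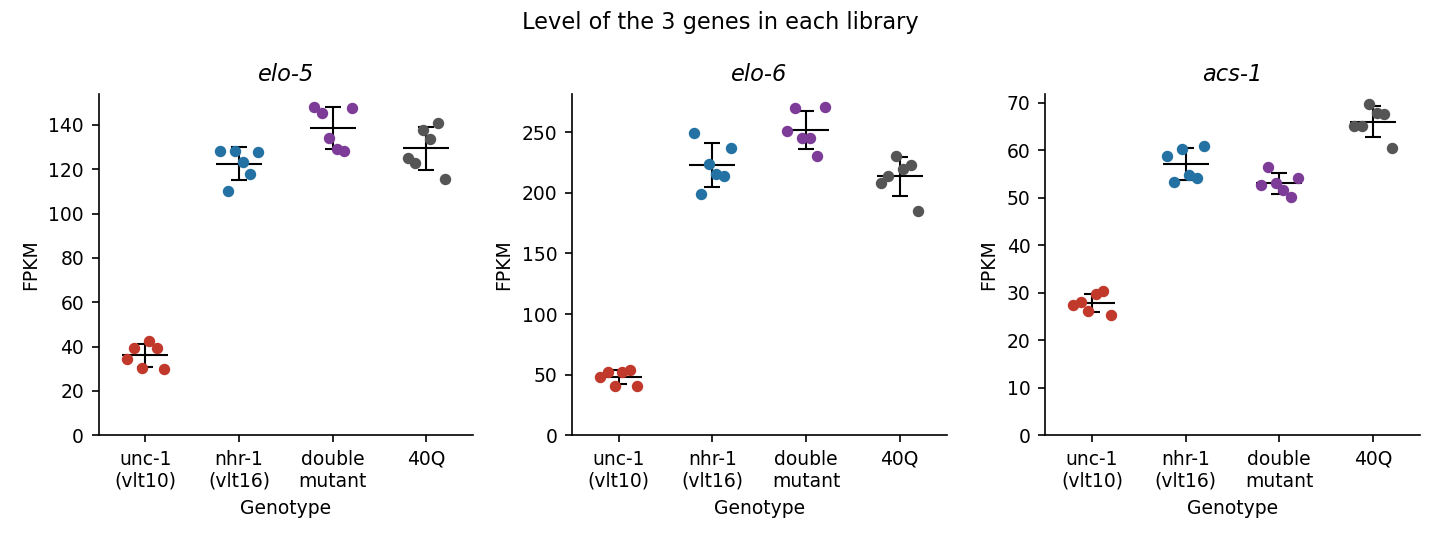
FPKM of elo-5, elo-6 and acs-1 (y axes, from 0) in each of the 6 libraries of each genotype (x axes); points are libraries, and bars are the mean and SD. The unc-1(vlt10) libraries lie between 30.1 and 42.7 FPKM for elo-5, 40.7 and 54.03 for elo-6 and 25.4 and 30.4 for acs-1, below all libraries of the other genotypes.

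As means, elo-5 had 36.1 ± 5.21 FPKM in unc-1(vlt10) and 129.5 ± 9.70 in 40Q (SD, n = 6 each), elo-6 had 48.0 ± 5.85 and 213.4 ± 15.9, and acs-1 had 27.85 ± 1.95 and 65.96 ± 3.25 in the same order of genotypes. In the edgeR fit of the counts, the log2 fold change of unc-1(vlt10) against 40Q was -1.90 for elo-5, -2.21 for elo-6 and -1.30 for acs-1, with standard errors of 0.0688, 0.0676 and 0.0468. These are 3.74-fold, 4.64-fold and 2.47-fold lower levels. From the lowest log2 fold change upwards, elo-6 ranked 53, elo-5 84 and acs-1 274 of the 14865 genes. Over all genes tested, 3.26% were called lower in this comparison, a call being a Benjamini-Hochberg adjusted p below 0.05 with a change of more than 2-fold. Since the genes were listed for this difference, no test is given for them and nothing is read from these ranks.

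In RNA from whole animals, fewer cells of a type and less RNA per cell cannot be told apart. A list of 7 intestinal genes, which includes the intestinal fate regulator elt-2, summed to 650.3 to 714.8 CPM in unc-1(vlt10) libraries, 770.1 to 810.9 in nhr-1(vlt16), 786.8 to 974.3 in double mutants and 937.1 to 1112 in 40Q. The 6 genes of the hypodermis and adult cuticle summed to 1123 to 1190 CPM in unc-1(vlt10) libraries, 1441 to 1594 in nhr-1(vlt16), 1415 to 1831 in double mutants and 1502 to 1802 in 40Q. None of these genes was at 0 in all 24 libraries. In unc-1(vlt10) against 40Q, 5 of the 7 intestinal genes fell and 1 rose by adjusted p, where 22.6% of all genes tested fell and 25.1% rose. Their median log2 fold change was -0.36. Of the 6 hypodermal genes, 2 fell and 1 rose, shares near those of all genes tested, with a median of -0.41. The 6 vitellogenin genes, which encode yolk made by the adult intestine, all fell, with a median of -0.88. They summed to 32200 to 36340 CPM in unc-1(vlt10) libraries and 46390 to 51180 in those of 40Q. The yolk sums were 41100 to 46690 CPM in nhr-1(vlt16) and 34290 to 45550 in double mutants, the latter also below every 40Q library. The 5 body wall muscle genes had 4 lower and 1 higher by adjusted p and a median of -0.21. They summed to 2958 to 3283 CPM in unc-1(vlt10) libraries and 3759 to 4398 in those of 40Q. The muscle sums were 3044 to 3323 CPM in nhr-1(vlt16), also below every 40Q library, and 2967 to 3761 in double mutants. The 5 neuronal genes had 1 lower and 1 higher and a median of -0.10. They summed to 403.1 to 423.2 CPM in unc-1(vlt10) libraries, 341.9 to 352.6 in nhr-1(vlt16), 321.0 to 351.7 in double mutants and 361.6 to 405.6 in 40Q. The germline list of 6 genes had a median of 0.01. Of 5 sperm genes, 4 were tested, with a median of 0.03 and none past the adjusted p. In double mutants against nhr-1(vlt16) all 4 were higher by adjusted p, as were 9.47% of all genes tested. The sperm sums were 16.3 to 19.29 CPM in double mutants and 10.67 to 12.6 in nhr-1(vlt16). In that comparison 2 of 7 intestinal genes were higher and 2 of 6 vitellogenin genes lower. The part of these lists in the lower levels of elo-5, elo-6 and acs-1 was not tested. Nor was their part in the differences between double mutants and nhr-1(vlt16). In nhr-1(vlt16) the intestinal sum was also below every 40Q library, and in double mutants its range overlapped that of 40Q.

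In nhr-1(vlt16) animals the 3 genes lay within 0.24 of 40Q on the log2 scale. The log2 fold change of nhr-1(vlt16) against 40Q was -0.11 ± 0.0628 for elo-5, 0.03 ± 0.0615 for elo-6 and -0.24 ± 0.0449 for acs-1 (standard error). Of double mutants against 40Q it was 0.05 ± 0.0621 for elo-5, 0.19 ± 0.0610 for elo-6 and -0.36 ± 0.0447 for acs-1. These comparisons share the 40Q libraries with the difference by which the genes were listed, so they have no test. In CPM, the 6 double mutant libraries of acs-1 lay below all 6 of 40Q, as did those of 6.63% of all genes tested.

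Set against unc-1(vlt10), the double mutants had more of all 3 transcripts. The log2 fold change was 1.95 ± 0.0682 for elo-5, 2.40 ± 0.0674 for elo-6 and 0.94 ± 0.0466 for acs-1, which is 3.87-fold, 5.29-fold and 1.92-fold. In CPM, the double mutant libraries of each gene lay above all unc-1(vlt10) libraries, as did those of 12.3% of all genes tested. The difference between the effect of unc-1(vlt10) in nhr-1(vlt16) animals and its effect in 40Q animals was 2.06 ± 0.0926 on the log2 scale for elo-5, 2.37 ± 0.0907 for elo-6 and 1.18 ± 0.0647 for acs-1. Of all genes tested, 8.84% were called for this difference. Both comparisons use the unc-1(vlt10) libraries again, and their values restate the low level in that genotype.

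The comparison of double mutants with nhr-1(vlt16) uses none of the libraries of unc-1(vlt10) against 40Q, and it was tested. The study also looked at elo-5 and elo-6 in double mutants, so the listing may have had those libraries in view, and the tests in them are independent of it only if it had not. It gives the effect of unc-1(vlt10) where nhr-1 is mutated. None of the 3 genes was called in it, against 0.888% of all genes tested. The mean of elo-5 was 138.7 ± 9.36 FPKM in double mutants, against 122.6 ± 7.34 in nhr-1(vlt16) (SD, n = 6 each), and the log2 fold change was 0.16 ± 0.0622 with an adjusted p of 0.0709 (edgeR quasi-likelihood test, Benjamini-Hochberg). The mean of elo-6 was 251.7 ± 15.8 FPKM in double mutants, against 223.1 ± 18.04 in nhr-1(vlt16), and its log2 fold change was 0.16 ± 0.0610 with an edgeR adjusted p of 0.0720. Both elongases were thus slightly above nhr-1(vlt16), without passing the test.

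The acyl-CoA synthetase gene went the other way. The mean of acs-1 was 53.0 ± 2.19 FPKM in double mutants, against 57.0 ± 3.35 in nhr-1(vlt16), and its log2 fold change was -0.12 ± 0.0448 with an edgeR adjusted p of 0.0494. By adjusted p alone, 9.54% of all genes tested were lower in double mutants. This adjusted p lies at the threshold, and it was above 0.05 in 11 of the 12 fits that left out a library, in each except that without double mutant replicate 2. Over those fits the adjusted p ranged between 0.0335 and 0.177, and the log2 fold change between -0.14 and -0.10. The elongases passed 0.05 when double mutant replicate 5 was left out, with adjusted p of 0.0376 for elo-5 and 0.0329 for elo-6, and elo-6 also without nhr-1(vlt16) replicate 1, with 0.0370. The double mutant libraries were deeper than those of nhr-1(vlt16), and the part of depth was not tested.

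Ratios between the genes within each library do not depend on how libraries are scaled to each other. As log2 ratios of FPKM, elo-6 over elo-5 averaged 0.41 ± 0.0669 in unc-1(vlt10), 0.86 ± 0.0583 in nhr-1(vlt16), 0.86 ± 0.0570 in double mutants and 0.72 ± 0.0509 in 40Q (SD, n = 6 each). The SD of this ratio was below the SD of log2 FPKM of elo-5 and of elo-6 in every genotype, the libraries with more of one elongase transcript tending to have more of the other. The ratio of elo-5 over acs-1 averaged 0.36 ± 0.124 in unc-1(vlt10), 1.10 ± 0.0464 in nhr-1(vlt16), 1.38 ± 0.0685 in double mutants and 0.97 ± 0.0505 in 40Q. For elo-6 over acs-1 these were 0.78 ± 0.0922, 1.96 ± 0.0705, 2.24 ± 0.0445 and 1.69 ± 0.0426. The SD of elo-6 over acs-1 was likewise below the SD of log2 FPKM of both genes in every genotype. The smaller SD of a ratio was thus not particular to the elongase pair, and pairs of other genes were not compared.

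The elongase transcripts were higher relative to acs-1 in double mutants than in nhr-1(vlt16). The log2 ratio of elo-5 over acs-1 ranged between 1.32 and 1.49 in double mutants, against values between 1.04 and 1.17 in nhr-1(vlt16), a difference of 0.28. An exact two-sided permutation test over all 924 arrangements gave p = 0.00216, the smallest that 6 against 6 libraries allow, and an adjusted p of 0.00325 over the 3 ratios compared. The log2 ratio of elo-6 over acs-1 ranged between 2.20 and 2.32 in double mutants, against values between 1.89 and 2.08 in nhr-1(vlt16), also a difference of 0.28, with the same exact p of 0.00216 and adjusted p of 0.00325. In both, 6 of 6 double mutant libraries lay above all nhr-1(vlt16) libraries. The share of other gene pairs whose ratios separate in this way was not computed. Both ratios are taken over acs-1, so they are not independent of each other. The ratio of elo-6 over elo-5 differed by -0.0025, with an exact permutation p of 0.950. The elongases and acs-1 thus differed in their change between these genotypes, and no difference in change between the elongases was detected.

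**Figure D2:**
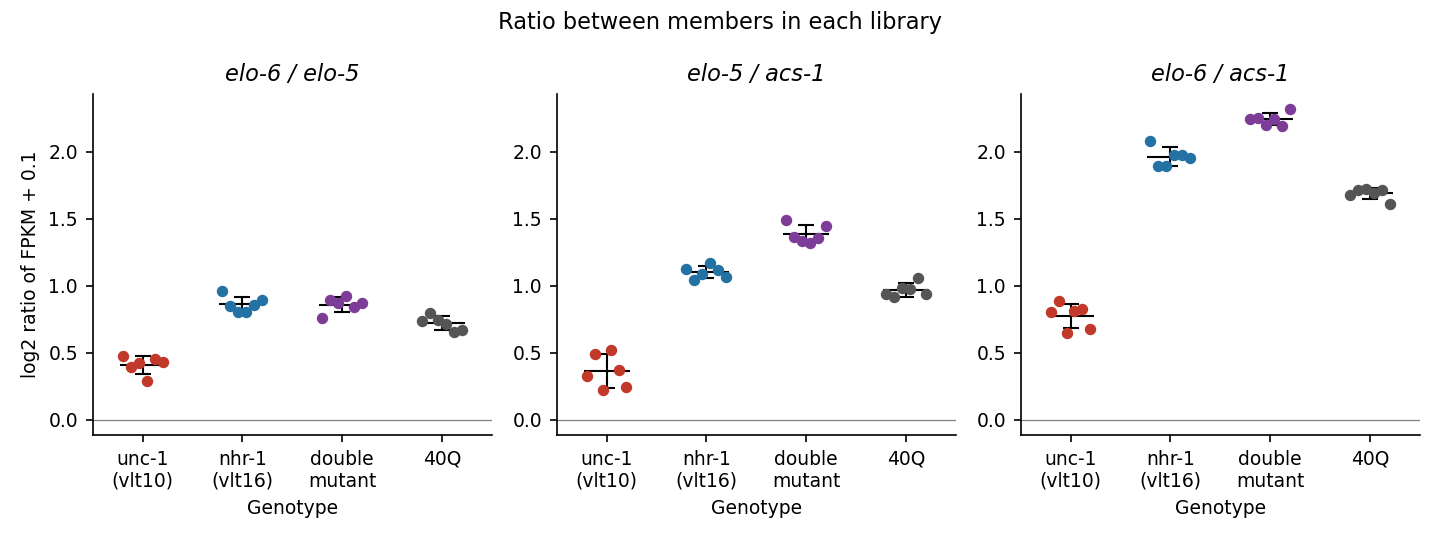
Log2 ratio of FPKM + 0.1 between each pair of the 3 genes (y axes) in the 6 libraries of each genotype (x axes); points are libraries, and bars are the mean and SD. Both ratios over acs-1 lie higher in all 6 double mutant libraries than in any nhr-1(vlt16) library, while elo-6 over elo-5 averages 0.86 in both. Ratios of other gene pairs were not compared.

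Genes that act around the 3 enzymes were taken in 7 lists of 60 genes in all, of which 59 were matched to the tables and 58 were tested. In unc-1(vlt10) against 40Q, edgeR called 4 of the 58, with 2 higher and 2 lower, where 5.95% of all genes tested were called. By adjusted p alone 10 were higher and 30 lower, against 25.1% and 22.6% of all genes tested. The median log2 fold change of the 58 genes was -0.16, against 0.02 over all genes tested. The study itself named elo-1, elo-2, pod-2 and fasn-1 from these libraries, so they are not independent evidence of a direction.

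The genes that make the branched primer from leucine were mostly lower in unc-1(vlt10), each by less than 2-fold. In that comparison bcat-1, the branched-chain amino acid aminotransferase, had 64.4 to 71.1 FPKM in unc-1(vlt10) and 119.2 to 129.0 in 40Q, a log2 fold change of -0.96 ± 0.0404 (edgeR adjusted p = 1.06e-18). Of the branched-chain ketoacid dehydrogenase, bckd-1B had -0.50, dbt-1 -0.37 and bckd-1A -0.11, all past the adjusted p, and dld-1, a subunit shared with other dehydrogenases, had 0.07 and did not pass. By adjusted p, 4 of the 5 genes were thus lower and none higher. In double mutants against unc-1(vlt10), bcat-1 (0.74), bckd-1B (0.40) and dbt-1 (0.22) were higher by adjusted p and dld-1 (-0.16) lower. Against nhr-1(vlt16), 1 of the 5 passed in double mutants, dld-1 with -0.13. Of the 3 genes that break the same primer down, ivd-1 (-0.25), the isovaleryl-CoA dehydrogenase, and mccc-1 (-0.13), a subunit of methylcrotonyl-CoA carboxylase, were lower in unc-1(vlt10) by adjusted p. The other subunit, mccc-2, had -0.06 and did not pass.

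The partners in chain synthesis and elongation were lower in unc-1(vlt10) as well, all 5 by adjusted p and none by 2-fold. The acetyl-CoA carboxylase pod-2, which makes malonyl-CoA, had 62.1 to 73.2 FPKM in unc-1(vlt10) and 90.55 to 100.9 in 40Q, a log2 fold change of -0.53 ± 0.0514 (edgeR adjusted p = 3.79e-10). The fatty acid synthase fasn-1 had a log2 fold change of -0.39. The other enzymes of the elongation cycle had -0.32 for let-767, the ketoacyl-CoA reductase, -0.34 for hpo-8, the hydroxyacyl-CoA dehydratase, and -0.27 for art-1, the enoyl-CoA reductase. Against unc-1(vlt10), all 5 were higher in double mutants by adjusted p, with log2 fold changes between 0.18 and 0.35. None of the 5 passed in double mutants against nhr-1(vlt16), with values between -0.01 and 0.11.

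Among the 7 other elongase genes, 1 passed 2-fold. It was elo-2, known for elongating palmitate, which had 50.03 to 70.3 FPKM in unc-1(vlt10) libraries, 133.0 to 147.6 in nhr-1(vlt16), 150.8 to 167.0 in double mutants and 147.5 to 174.4 in 40Q. Its log2 fold change of unc-1(vlt10) against 40Q was -1.50 ± 0.0607 (edgeR adjusted p = 3.45e-19), and that of double mutants against unc-1(vlt10) was 1.40 ± 0.0604 (adjusted p = 1.9e-18). By adjusted p, elo-9 (-0.92), elo-1 (-0.51), which acts on polyunsaturated fatty acids, and elo-3 (-0.43) were lower as well in unc-1(vlt10) against 40Q. The weakly expressed elo-4 (-0.18) and elo-8 (0.07) did not pass, and elo-7, with 1 to 14 counts per library, was not tested. Levels per length placed elo-1, elo-6 and elo-2 highest among the 9 elongase genes in 40Q, with mean FPKM of 326.3, 213.4 and 164.1, and elo-1, elo-3 and elo-2 highest in unc-1(vlt10), with 239.2, 80.6 and 60.5. In unc-1(vlt10), elo-6 and elo-5 followed with 48.0 and 36.1 FPKM. None of the 6 tested passed in double mutants against nhr-1(vlt16), and elo-2 had 0.15 with an adjusted p of 0.0743.

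**Figure D3:**
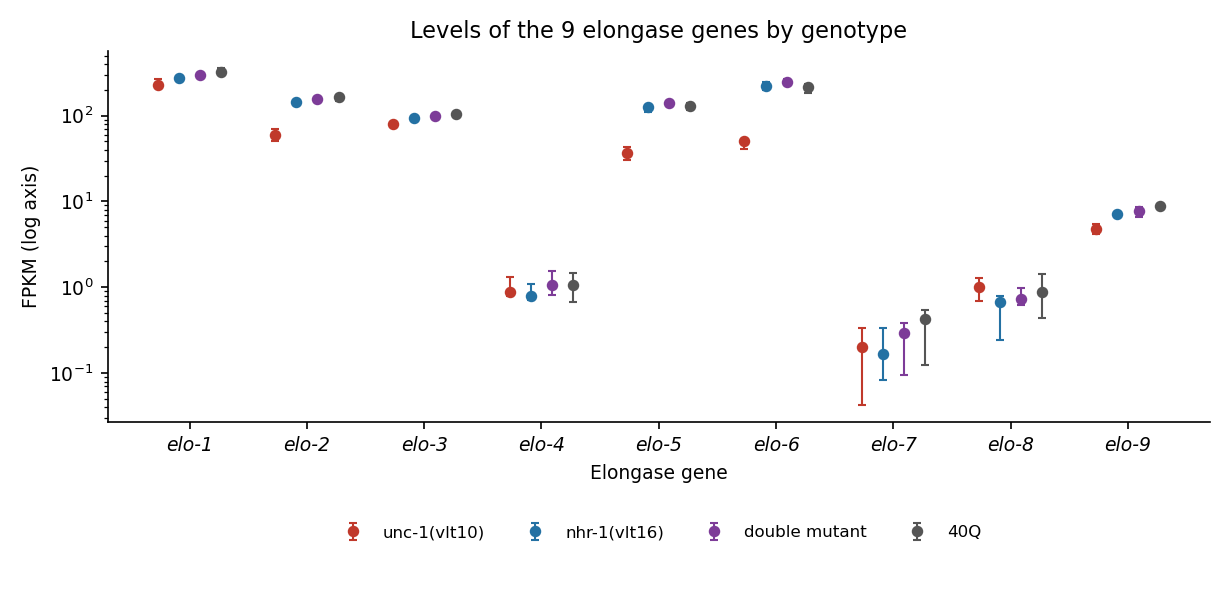
FPKM of the 9 elongase genes (y axis, log scale) in each genotype; points are the median of 6 libraries, and bars run from the lowest to the highest library. In unc-1(vlt10), elo-2, elo-5 and elo-6 lie at 50.03 to 70.3, 30.1 to 42.7 and 40.7 to 54.03 FPKM. There elo-3 and elo-9 lie at 76.55 to 83.61 and 4.131 to 5.536 FPKM. Each of these genes lies below all libraries of the other genotypes.

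The other acyl-CoA synthetase genes showed no common direction with acs-1. Of 20 tested in unc-1(vlt10) against 40Q, 8 were higher and 5 lower by adjusted p, and 1 passed 2-fold. It was acs-2, which acts in mitochondrial beta-oxidation, with 221.9 to 272.5 FPKM in unc-1(vlt10) and 90.8 to 114.6 in 40Q, a log2 fold change of 1.22 ± 0.0651 (edgeR adjusted p = 3.37e-16). In double mutants acs-2 had 64.9 to 88.3 FPKM, a log2 fold change against unc-1(vlt10) of -1.70 ± 0.0659 (adjusted p = 1.13e-19). Against nhr-1(vlt16) it was -0.35 ± 0.0655 (adjusted p = 0.000238), a fall of less than 2-fold. The lowest of the 20 in unc-1(vlt10) against 40Q was acs-14, which went the way of acs-1, with -0.91 ± 0.0536 (edgeR adjusted p = 3.95e-15). It had 0.79 in double mutants against unc-1(vlt10). Against nhr-1(vlt16) it had 0.19 in double mutants, where acs-1 had -0.12.

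Of 10 genes of sphingolipid synthesis, 6 were lower and 1 higher by adjusted p in unc-1(vlt10) against 40Q. The gene sptl-2, a subunit of serine palmitoyltransferase, which makes the sphingoid base, had 6.12 to 7.61 FPKM in unc-1(vlt10) and 12.7 to 14.9 in 40Q, a log2 fold change of -1.09 ± 0.0559 (edgeR adjusted p = 1.12e-16). It was 1.22 ± 0.0548 in double mutants against unc-1(vlt10) (adjusted p = 4.39e-18). The 3 ceramide glucosyltransferase genes did not share a direction. In unc-1(vlt10), cgt-1 had 7.53 to 9.65 FPKM, against 3.00 to 4.70 in 40Q, a log2 fold change of 1.27 ± 0.0968 (adjusted p = 1.68e-12), and cgt-2 had 1.59 to 2.18 FPKM, against 3.23 to 3.81 in 40Q, a log2 fold change of -0.96 ± 0.0910 (adjusted p = 2.24e-10). The gene cgt-3 had a log2 fold change of -0.27 ± 0.0371 in unc-1(vlt10) against 40Q (adjusted p = 3.07e-07), less than 2-fold. In double mutants against unc-1(vlt10), cgt-1 fell by 2.08 and cgt-2 rose by 1.07, both past the call, and cgt-3 rose by 0.22 by adjusted p alone. Among the 9 regulators and genetic partners, 4 were lower and 1 higher by adjusted p and none passed 2-fold in unc-1(vlt10) against 40Q. The higher gene was sbp-1, the sterol regulatory element binding protein of C. elegans, with 0.18 ± 0.0453 (adjusted p = 0.00156).

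Over the 7 lists, double mutants against unc-1(vlt10) had 5 called genes, with elo-2, sptl-2 and cgt-2 higher and acs-2 and cgt-1 lower, against 6% of all genes tested. By adjusted p alone, 27 were higher and 15 lower, against 21.6% and 21.7% of all genes tested. In double mutants against nhr-1(vlt16) edgeR called 0 of the 58, DESeq2 also called 0, and 20 had an unadjusted p below 0.05. By adjusted p alone, 5 were higher and 8 lower, against 9.47% and 9.54% of all genes tested. In nhr-1(vlt16) against 40Q edgeR called 0 and DESeq2 1, which was elo-7, and 37 had an unadjusted p below 0.05. In double mutants against 40Q both tools called 0, and 32 had an unadjusted p below 0.05 in edgeR. All genes tested had 2.7% called in nhr-1(vlt16) against 40Q and 2.02% in double mutants against 40Q. Of all 14865 genes tested, 4734 had an unadjusted p below 0.05 in double mutants against nhr-1(vlt16). That number was 7407 in nhr-1(vlt16) against 40Q and 6217 in double mutants against 40Q.

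**Figure D4:**
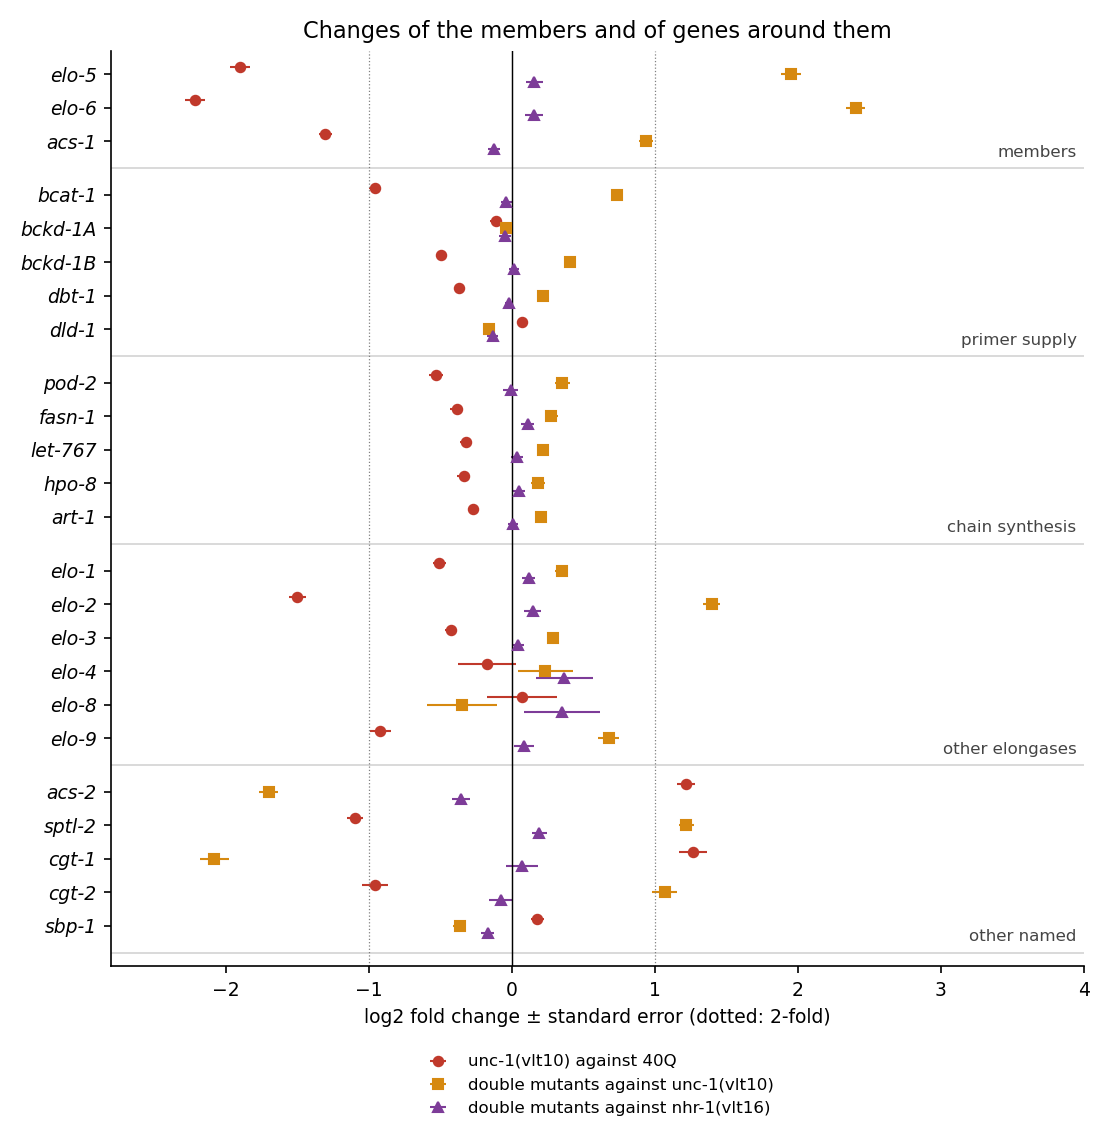
Log2 fold change with its standard error (x axis) of elo-5, elo-6, acs-1 and genes of the lists around them (y axis) in 3 comparisons; dotted lines mark 2-fold. The 3 genes at the top, elo-5, elo-6 and acs-1, have -1.90, -2.21 and -1.30 when unc-1(vlt10) is set against 40Q, 1.95, 2.40 and 0.94 in double mutants against unc-1(vlt10), and 0.16, 0.16 and -0.12 in double mutants against nhr-1(vlt16).

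The genes whose profile was most like each of the 3 were found among 11128 genes, by the root mean square difference of centred log2 CPM over the 24 libraries. Nearest to elo-5 were F42A8.1 with 0.0886, abhd-3.2, named for an alpha/beta hydrolase domain, with 0.0946, and Y58A7A.1 with 0.115. Nearest to elo-6 were F08F3.4 with 0.155, the heme transporter gene hrg-4 with 0.170 and the ammonium transporter gene amt-4 with 0.186. Nearest to acs-1 were F21D5.3 with 0.0460, hpd-1, which acts in tyrosine breakdown, with 0.0687, and mct-4, a monocarboxylate transporter gene, with 0.0735. Between elo-5 and elo-6 the difference was 0.191, which made elo-6 the gene at rank 19 for elo-5 and elo-5 the gene at rank 6 for elo-6. Between acs-1 and elo-5 it was 0.379 and between acs-1 and elo-6 0.554.

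The nearest genes followed the 3 genes in the level of each genotype. F42A8.1 had a mean of 19.6 FPKM in unc-1(vlt10), 62.9 in nhr-1(vlt16), 69.7 in double mutants and 64.9 in 40Q, and F08F3.4 had 5.76, 32.3, 35.5 and 31.7 in the same order. F21D5.3 had 22.9, 48.6, 45.8 and 56.3 FPKM, with double mutants and nhr-1(vlt16) below 40Q as for acs-1. The log2 fold change of unc-1(vlt10) against 40Q was -1.79 for F42A8.1, -2.52 for F08F3.4 and -1.36 for F21D5.3. These genes were chosen for their likeness over the same libraries, so their values are a description.

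**Figure D5:**
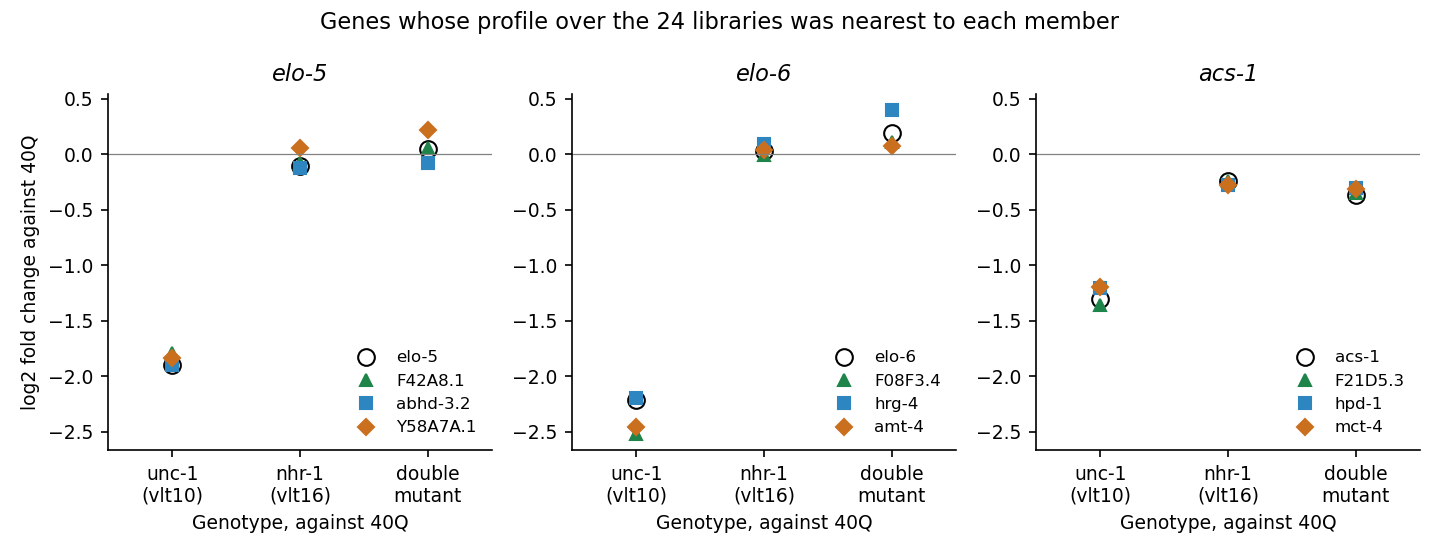
Log2 fold change against 40Q (y axis) of each of the 3 genes (open circles) and the 3 genes nearest to it in profile (filled) in the 3 mutant genotypes (x axis). For acs-1 and its nearest genes all values are below 0, with acs-1 at -1.30, -0.24 and -0.36, while elo-5 and elo-6 have 0.05 and 0.19 in double mutants.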

How the data were processed

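RNA from pooled animals was enriched with oligo(dT) and sequenced by Novogene. Per the submitters' processing notes, the authors used HISAT2 2.0.5, HTSeq 0.6.1 and DESeq2 1.24.0 with WBcel235; the strand setting is not given in the sources used here. The authors deposited whole-number counts per gene, without normalization, and FPKM values, which are scaled for gene length and depth. Their 6 tables of fold changes and p-values were not used.

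Counts of all 24 libraries were fitted in edgeR 4.0.16 (R 4.3.3) with genotype as the only term, TMM, filterByExpr and quasi-likelihood F-tests, adjusted by the Benjamini-Hochberg method over 14865 genes. Standard errors are those implied by the F statistic. A call needed an adjusted p below 0.05 and more than 2-fold change. Log2 CPM used a prior count of 2. FPKM ratios, with a pseudocount of 0.1, were compared by exact permutation tests in Python 3.11.15 with scipy 1.17.1. The scripts were tested on simulated data. Library totals of 19098458 to 30467364 limit precision for genes with few counts, such as elo-7.

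The genes and lists were chosen with earlier results of these data known. Named are elo-5, elo-6, acs-1, unc-1, nhr-1, sbp-1, all genes of the primer, chain synthesis and elongase lists, other listed genes past the call in 3 comparisons, and the 3 nearest profiles of each gene, from a mean log2 CPM of 1 upwards. Outside this rule, ivd-1, mccc-1, mccc-2, cgt-3, acs-14 and acs-18 were named after their values were seen. The listed gene acs-8 was not matched. The alternatives were DESeq2 1.42.0, size factors, total counts, other filters, a replicate block, fits of 12 libraries, FPKM tests and leaving out libraries; those for the ratios that left out a library were chosen after seeing the data.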

Additional observations from a re-analysis of the deposited data

Results flagged for a closer look

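The effect of unc-1(vlt10) differed between nhr-1(vlt16) and 40Q animals by more than 2-fold for 6 of the 58 listed genes tested. This was a test of the difference itself (edgeR interaction term, Benjamini-Hochberg). For elo-2 the log2 fold change was 0.15 in double mutants against nhr-1(vlt16) and -1.50 in unc-1(vlt10) against 40Q, a difference of 1.64 ± 0.0834 (adjusted p = 3.63e-16). For acs-2 these were -0.35 and 1.22, a difference of -1.57 ± 0.0922 (adjusted p = 1.02e-14). For sptl-2 they were 0.19 and -1.09, a difference of 1.29 ± 0.0758 (adjusted p = 1.14e-14). For cgt-1 they were 0.07 and 1.27, a difference of -1.19 ± 0.151 (adjusted p = 1.23e-07). For acs-14 they were 0.19 and -0.91, a difference of 1.10 ± 0.0745 (adjusted p = 2.78e-13). For elo-9 they were 0.08 and -0.92, a difference of 1.00 ± 0.101 (adjusted p = 1.67e-09), at the 2-fold limit. Over all genes tested, 8.84% had such a difference, a share near that of the listed genes, so nothing about the lists is read from this count. No library of elo-5, elo-6 or acs-1 stood apart by Dixon's criterion in any of the 12 groups of 6, a criterion that chance meets in about 1 in 20 groups.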

How the results depend on the processing

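For elo-5, elo-6 and acs-1, every alternative kept the direction of unc-1(vlt10) against 40Q and of double mutants against unc-1(vlt10), with log2 fold changes against 40Q of -1.98 to -1.84, -2.28 to -2.15 and -1.35 to -1.24. The tests of double mutants against nhr-1(vlt16) lay near the threshold and moved across it. For elo-5 they passed with total counts alone (0.18, adjusted p = 0.0398), no filter on low counts (0.17, 0.0426), only the 12 libraries compared (0.16, 0.0116) and exact permutation tests on log2 FPKM with pseudocounts of 0.1, 1 and 0.01 (0.1778, 0.1766 and 0.1779, unadjusted p = 0.00649 each). For elo-6 they passed with total counts alone (0.17, 0.0382), no filter (0.16, 0.0415), the 12 libraries (0.16, 0.0220) and the same exact tests (0.1753, 0.1746 and 0.1754, p = 0.0173 each). Without 1 library, elo-5 ranged between 0.14 and 0.19, elo-6 between 0.13 and 0.19 and acs-1 between -0.14 and -0.10. For acs-1 the adjusted p was above 0.05 with total counts alone (-0.11, 0.0806), no filter (-0.12, 0.0691) and a filter of 1 CPM in 6 libraries (-0.12, 0.0553), and below it with size factors (0.0451), DESeq2 (0.0385) and the 12 libraries (0.0346). The exact tests gave -0.1044, -0.1028 and -0.1046 for acs-1 (unadjusted p = 0.0390 each). The causes of these shifts were not tested. The ratios over acs-1 passed under all their alternatives, with differences between 0.26 and 0.30.

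With the replicate number as a block, acs-1 had -0.12 with an adjusted p of 0.0703, and double mutants against nhr-1(vlt16) had 128 called genes against 132 without the block. The numbers did not pair the libraries: of 36 pairs of same-numbered libraries, 3 had a correlation of deviations above 0.1, with a range between -0.147 and 0.167. The block changed neither the counts of called listed genes nor the side of the threshold of elo-5, elo-6 and the ratios.

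For the 7 lists, DESeq2 and edgeR with no filter, which test genes of lower counts, also called elo-7 lower. The count in nhr-1(vlt16) against 40Q was then 1 with either, and that in unc-1(vlt10) against 40Q was 5 in place of 4. In double mutants against nhr-1(vlt16), acs-18, whose log2 fold change of 1.00 lies at the 2-fold limit, was called with total counts alone, no filter and the 1 CPM filter (1 gene each). With no fold change threshold the counts were 40 in unc-1(vlt10) against 40Q, 30 in nhr-1(vlt16) against 40Q, 25 in double mutants against 40Q, 42 in double mutants against unc-1(vlt10) and 13 in double mutants against nhr-1(vlt16). Over all 14865 genes tested, these counts were 7103, 6311, 4790, 6439 and 2825 in the same order of comparisons. A filter on low values was not applied to the ratios, since all 3 genes have at least 599 counts in every library.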
